A study of Mus musculus with 9 samples.

Results

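NLRC5 peaks of T cells lacking Rfx5 were compared with those of wild-type (WT) T cells. The compared sites were the 32 genomic intervals at which peaks of all 5 WT lists overlapped by at least 1 bp, out of 4207 sites found in any WT list. Of these 32 sites, 22 overlapped no peak of the Rfx5-/- list and are called lost, and 10 overlapped one and are called kept. Lost means that no peak was called in Rfx5-/-, not that NLRC5 was shown to be absent. The Rfx5-/- list held 1970 peaks, of which 57 lay in at least 1 WT list and 1913 in none, out of 8593 peaks deposited for the series in 7 lists.

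NLRC5 was immunoprecipitated from sonicated T cell chromatin with a rabbit polyclonal antibody raised against amino acids 1 to 139 of the mouse protein, and the fragments were sequenced. WT and Nlrc5F/F mice, the latter with a functional Nlrc5 gene, had a C57Bl/6 (H2b) background, while the Rfx5-/- mice had a mixed Sv129/C57Bl/6 (H2b) background. The mice were matched for age and sex, were 6 to 12 weeks old, and 5 were pooled per genotype, which gave 1 library per genotype. The lists A to E were called on 5 subsamples of the single WT library, so their spread shows the sampling of reads and not the variation between animals, and every list was called against the same Nlrc5-/- control. The comparison is therefore a description without a test, and the loss of Rfx5 and the Sv129 part of the genome cannot be told apart. The Nlrc5F/F list, from a second genotype with intact NLRC5 and Rfx5, is given beside the Rfx5-/- list to show how often a WT site returned in another library. Each peak has a score, which is the −log10 of the p-value given by the peak caller, and the lists give no read counts, so that the depth behind a peak is unknown. According to the study's methods the WT subsamples were drawn to a fixed number of reads, while for Rfx5-/- and Nlrc5F/F a minimum alone is stated, so whether the Rfx5-/- library was deeper or shallower than a WT subsample is not known. Scores depend on depth and are compared between sites of the same list only.

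NLRC5 is a transactivator of MHC class I genes that has no sequence-specific DNA-binding domain of its own. It is thought to reach promoters through the enhanceosome, in which the RFX complex (Rfx5, Rfxap and Rfxank) binds the X box of a composite element, the SXY module, together with CREB/ATF factors and NF-Y, which binds the Y box. In the MHC class II system the related protein CIITA is recruited through a related module.

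The 22 lost sites included 10 with an S-X pair, searched as AACNT and TGAC separated by 28 bases on both strands, and the 10 kept sites included 0. These letters were taken from boxes that the study described at promoters of this kind, so their presence there is no finding. All 10 were among the 13 lost sites on chromosome 17 and at B2m, while the 9 other lost sites had 0, as the kept sites had. Among 32817 RefSeq promoter windows of 300 bases (GRCm38.p6), 0.594% held the pair. Of all 4207 WT sites, 25 (0.594%) held it, so 0 of 10 kept sites is near the share over all sites. The following modules of lost sites are printed from the S box to the Y box, on GRCm38.p6 and credited to RefSeq, because they hold the searched pair. TGAC is the end of the X box, and the rest of that box was not searched, so binding of the RFX complex to these stretches was not tested. Capitals mark AACNT, TGAC and, where it began 20 to 48 bases after TGAC, ATTGG.
B2m, chr2:122147576-122147638, + strand: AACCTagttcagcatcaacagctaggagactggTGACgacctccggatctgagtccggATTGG
H2-K1, chr17:34000359-34000421, - strand: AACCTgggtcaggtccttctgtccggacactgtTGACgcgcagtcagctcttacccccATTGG
H2-Q6, chr17:35424714-35424775, + strand: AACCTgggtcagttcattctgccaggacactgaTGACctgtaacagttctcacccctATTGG
H2-Q7, chr17:35439058-35439119, + strand: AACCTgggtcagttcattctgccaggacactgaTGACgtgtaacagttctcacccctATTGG
H2-T22, chr17:36042826-36042915, - strand: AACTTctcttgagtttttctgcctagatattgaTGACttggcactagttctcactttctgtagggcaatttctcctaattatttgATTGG
H2-T10, chr17:36121543-36121632, - strand: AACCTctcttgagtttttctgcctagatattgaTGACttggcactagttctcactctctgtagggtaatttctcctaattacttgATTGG
H2-K2, chr17:33978884-33978945, - strand: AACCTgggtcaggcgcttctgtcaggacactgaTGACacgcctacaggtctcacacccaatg
ATTGG followed TGAC after 21 bases in B2m and H2-K1, after 20 bases in H2-Q6 and H2-Q7, and after 48 bases in H2-T22 and H2-T10. In H2-K2, annotated as a pseudogene, no ATTGG lay within that range. The reverse complement CCAAT followed TGAC after 19 bases, and 25 bases after TGAC are shown. The H2-Q6 and H2-Q7 modules were the same at 61 of 62 bases, and the H2-T22 and H2-T10 modules at 86 of 90 bases. At H2-D1, H2-Q4 and Tap1 the pair overlapped an annotated exon, and 30 bases around TGAC, in capitals, are given.
H2-D1, chr17:35262971-35263000, + strand: ggtccttctgccgggacactgaTGACgcgc
H2-Q4, chr17:35379491-35379520, + strand: ggtccttctgcccggacactgaTGACttac
Tap1, chr17:34187448-34187477, + strand: ggcaaatctgcccagagacaggTGACgaca
In H2-D1 and H2-Q4 the spacing to ATTGG was 21 bases, and Tap1 had neither ATTGG in the range nor CCAAT up to 48 bases after TGAC. The search took exact letters, so this does not show that Tap1 lacks a Y box. The centre of the module was 43 to 123 bp upstream of the GENCODE start in 9 of these genes. In H2-D1 it was 261 bp downstream of the GENCODE start but 103 bp upstream of the RefSeq start, so that its side of the start depended on the annotation.

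The lost sites with the highest WT scores were those of the classical and nonclassical MHC class I genes and of B2m. H2-D1, which encodes a classical heavy chain, was the highest peak of every WT list, with scores of 214, 244, 174, 173 and 160 in lists A to E. It was also the highest peak of the Nlrc5F/F list, with a score of 103. The peak shared by H2-T10, a nonclassical gene, and Gm19684 ranked second in each of these 6 lists, with WT scores of 193, 203, 153, 151 and 158 and an Nlrc5F/F score of 56.5. The nearest Rfx5-/- peak was 31727 bp away from the H2-D1 site and 826131 bp away from the H2-T10 site.

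At H2-K1, the other classical heavy chain gene of this haplotype, the WT scores were 120, 150, 109, 104 and 119 and the Nlrc5F/F score was 41.1. The promoter peak of H2-Q7, which encodes a Qa-2 molecule, scored 142, 146, 140, 140 and 151 in WT and 36.7 in Nlrc5F/F. H2-Q4 scored 104, 112, 98.1, 94.0 and 88.2 in WT and 14.4 in Nlrc5F/F. These 3 sites had ranks of 3 to 5 in every WT list, and the Rfx5-/- list held no peak within 31046 bp of any of them.

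B2m encodes the light chain of all class I molecules and lies outside the MHC on chromosome 2. Its promoter peak scored 87.0, 96.7, 86.9, 66.5 and 82.6 in WT, where it ranked 6 in every list, and 25.8 in Nlrc5F/F, where it ranked 6 as well. The nearest peak in Rfx5-/- was 270494 bp away. At the promoter shared by Tap1, a subunit of the peptide transporter, and Psmb9, an immunoproteasome subunit, the scores were 22.5, 29.8, 19.6, 24.6 and 21.1 in WT and 7.33 in Nlrc5F/F. H2-Q6 had a WT median of 32.9 and an Nlrc5F/F score of 14.2, and H2-T22, together with Gm6034, had a median of 27.7 and a score of 6.12. Thus the 10 lost sites with the highest WT medians, which include a chromosome 15 site described further on, were all found again in Nlrc5F/F.

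**Figure D1:**
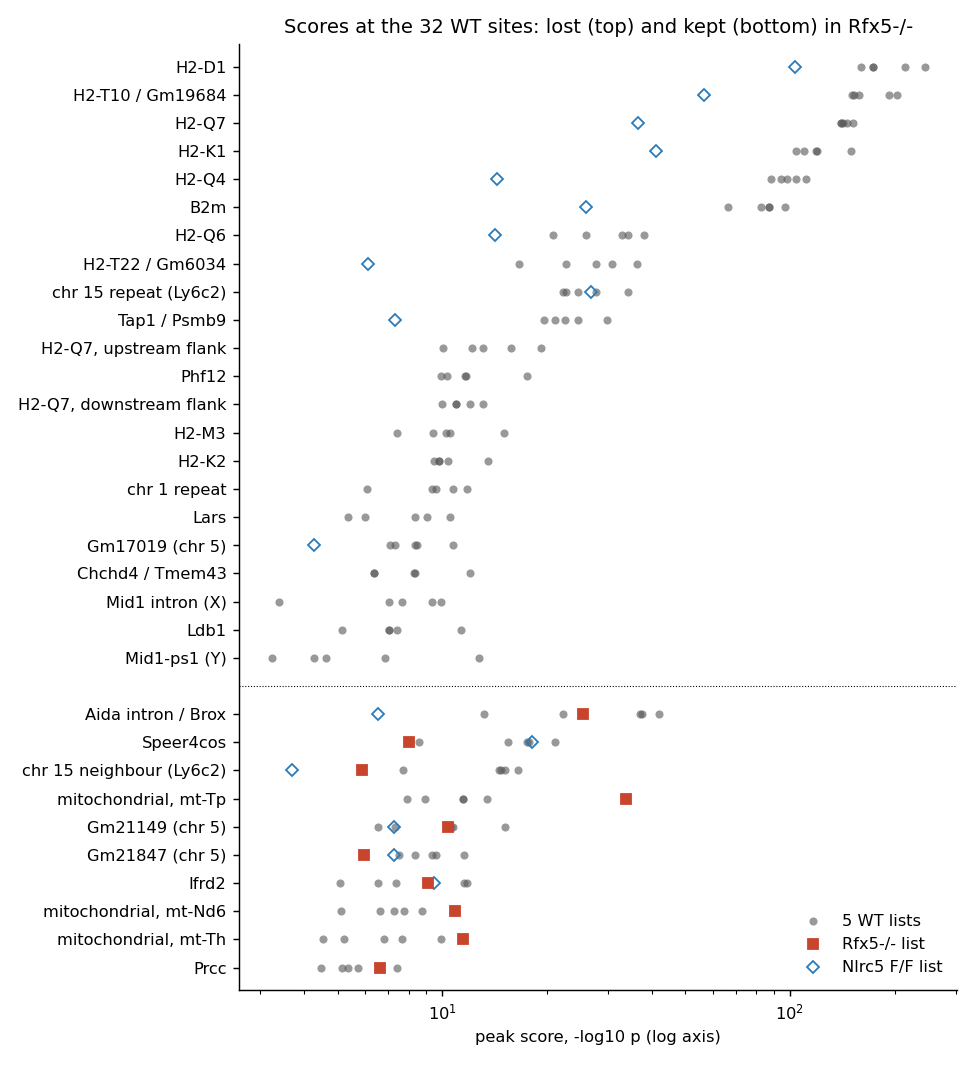
Peak score (−log10 p, log axis) at each of the 32 WT sites in the 5 WT lists (grey circles), the Nlrc5F/F list (open blue diamonds) and the Rfx5-/- list (red squares), with the 22 lost sites above the dotted line and the 10 kept sites below it. The 6 highest lost sites have WT scores of 66.5 or more. The highest kept site, in an Aida intron, has WT scores of 41.9 or less, with a median of 37.2.

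The MHC also held 4 lost sites that were absent from the Nlrc5F/F list. H2-M3, which encodes a nonclassical molecule presenting formylated peptides, scored 10.6, 7.42, 9.40, 10.22 and 15.1 in WT. H2-K2, annotated as a transcribed unprocessed pseudogene, scored 9.45, 9.79, 9.81, 10.4 and 13.5. The other 2 lay beside the H2-Q7 promoter peak, with centres 562 bp upstream and 321 bp downstream of the start, and had WT medians of 13.1 and 10.97. All 4 were weaker in every WT list than the H2-Q6 peak, the weakest of the Q region sites found in Nlrc5F/F. They were thus missing from a library with intact Rfx5 as well.

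In all, 12 of the 22 lost sites and 0 of the 10 kept sites were on chromosome 17, within the MHC. Chromosome 17 as a whole held 27 of 459, 36 of 529, 64 of 1436, 59 of 1043 and 52 of 1207 peaks of WT lists A to E. It held 71 of the 1970 Rfx5-/- peaks, so 0 of 10 kept sites is near the share over all peaks. Over the 4270 kb from 33500347 to 37770220 of that chromosome, the WT lists had 16 to 22 peaks and the Nlrc5F/F list had 12, whereas the Rfx5-/- list had 4, of which none lay in a WT list. Their scores were 6.11, 4.46, 3.45 and 4.46, and their nearest gene starts were those of Gm23111, BC051142, Slc44a4 and Gm18734. The closest approach of any Rfx5-/- peak to a lost MHC site was 9869 bp, at H2-K2.

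Gene lists were searched for a peak within 5 kb of the start. The share of all annotated genes with such a peak was not computed, so whether a count of 0 is below it is not known. Over the whole Rfx5-/- list, the median distance from a peak to the nearest gene start was 19252 bp. The MHC class I list had 23 annotated genes, among them the pseudogene H2-K2 and the predicted genes Gm19684, Gm6034 and Gm11131. The predicted genes adjoin H2-T10, H2-T22 and H2-Q4, and genes that share a peak were each counted. Of the 23, 12 had a site of all 5 WT lists, 10 had an Nlrc5F/F peak and 0 had an Rfx5-/- peak. Of 14 genes of the light chain and of peptide processing and loading, 3 had such a site (B2m, Tap1 and Psmb9), the same number had an Nlrc5F/F peak, and 0 had an Rfx5-/- peak. Among 11 MHC class II genes and 9 genes of the enhanceosome and NLRC5 itself, no list had a peak, and the same held for 8 T cell and 3 B cell markers, so that the peaks could not be used to check the labelled cell type. The 5 Mb on both sides of the Rfx5 gene held 12 of 1970 Rfx5-/- peaks and 10 of 1949 Nlrc5F/F peaks. They held 3 of 459, 2 of 529, 9 of 1436, 6 of 1043 and 4 of 1207 peaks of WT lists A to E.

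**Figure D2:**
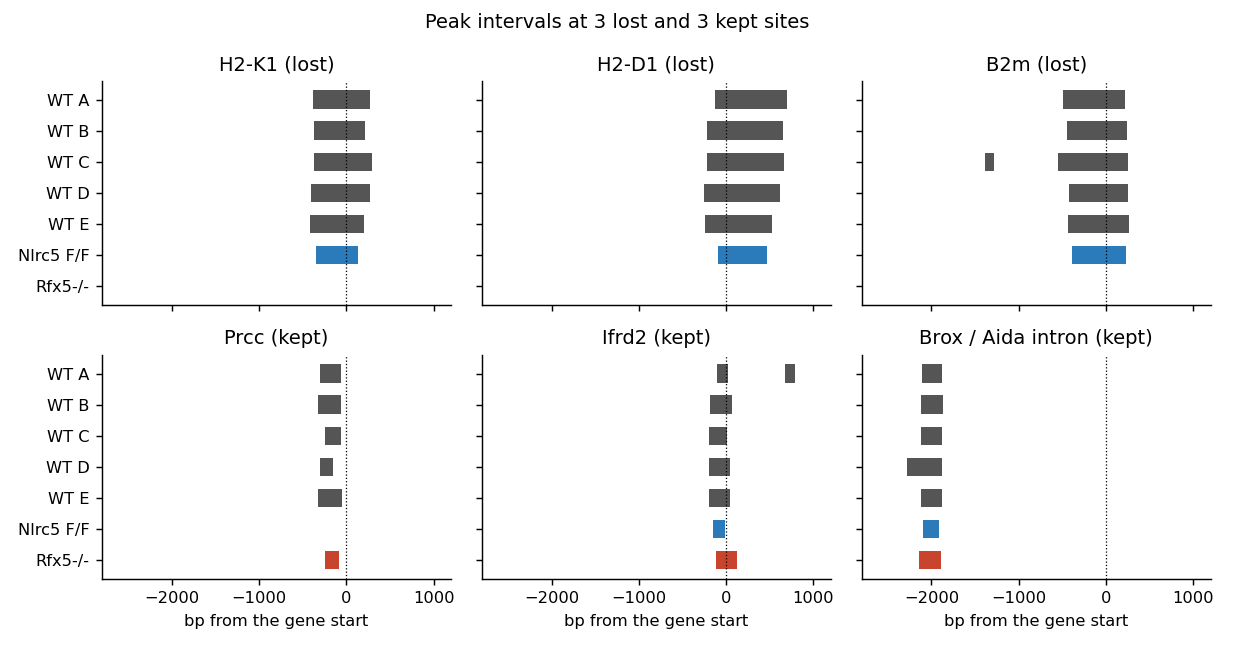
Intervals of the deposited peaks in the 5 WT lists (grey), the Nlrc5F/F list (blue) and the Rfx5-/- list (red) around 3 lost and 3 kept sites, in bp from the annotated gene start (dotted line) along the direction of transcription. At H2-K1, H2-D1 and B2m, 6 lists show a peak over the start and the Rfx5-/- row is empty, while at Prcc, Ifrd2 and the Aida intron upstream of Brox the red interval overlaps each of the 5 grey ones, with 86, 124 and 217 bp common to all 6.

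Outside the genes of the class I and processing lists, the Rfx5-/- and Nlrc5F/F lists held similar numbers of the sites in all 5 WT lists. The 13 nuclear sites of all 5 WT lists within 5 kb of those genes had 0 Rfx5-/- peaks and 9 Nlrc5F/F peaks. The 16 other nuclear sites had 7 Rfx5-/- peaks and 8 Nlrc5F/F peaks, 6 of them shared, and 7 of these sites were in neither list. The difference between the 2 kinds of site was not tested, because each genotype had 1 library.

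The share of WT sites with an Rfx5-/- peak was lowest for sites of a single WT list and higher for sites of 4 or 5 lists. Over all 4207 WT sites, 62 had an Rfx5-/- peak (1.47%), against 10 of the 32 sites in all 5 lists (31.2%). Among nuclear sites the share was 24 of 3926 (0.611%) for sites in 1 list, 8 of 177 (4.52%) in 2 lists, 3 of 39 (7.69%) in 3 lists, 6 of 22 (27.3%) in 4 lists and 7 of 29 (24.1%) in 5 lists. The corresponding Nlrc5F/F numbers were 37, 9, 8, 7 and 17. Both lists thus held a larger share of the sites in 4 or 5 subsamples than of those in 1 or 2, and the widest gap between them was at the sites in all 5 lists.

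**Figure D3:**
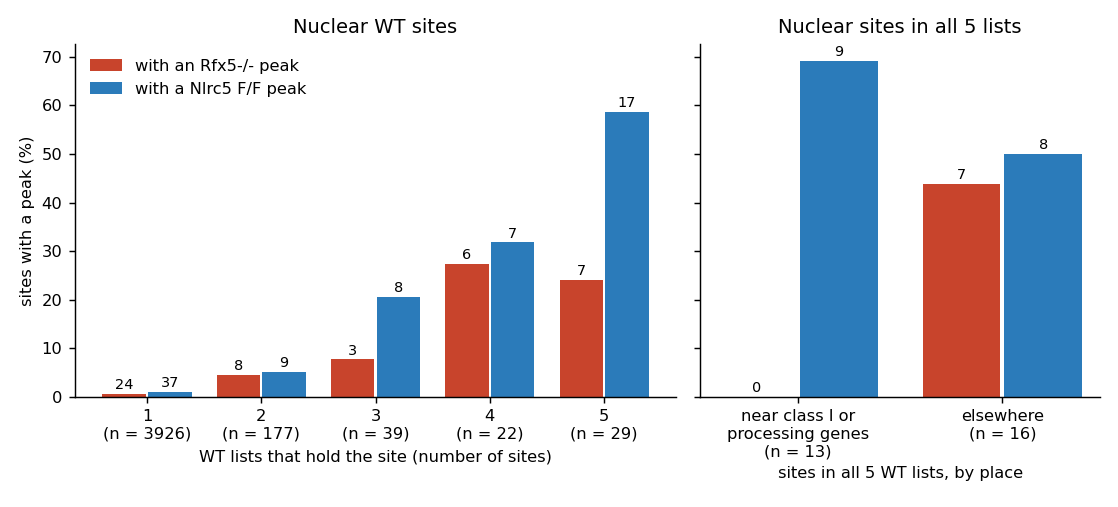
Percentage of nuclear WT sites with an Rfx5-/- peak (red) or an Nlrc5F/F peak (blue), by the number of WT lists that hold the site (left) and, for sites in all 5 lists, by whether they lie within 5 kb of a class I or processing gene (right), with the number of sites on each bar. The red bar is 0 of 13 near those genes and 7 of 16 elsewhere, and the blue bars are 9 of 13 and 8 of 16.

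The kept site with the highest WT score lay in an intron of Aida, an inhibitor of JNK signalling by axin, with its centre 2074 bp upstream of the start of Brox. It scored 37.2, 22.2, 37.5, 13.2 and 41.9 in WT, where it ranked 7, 11, 7, 15 and 7. In Rfx5-/- it scored 25.4 and ranked 2 of 1970, and in Nlrc5F/F it scored 6.55 and ranked 118. The WT and Rfx5-/- intervals overlapped, with 217 bp common to the WT lists and the Rfx5-/- peak. It was the single nuclear peak of the Rfx5-/- list above 20 that lay in a WT list. The study lists a peak inside this kept interval, with Aida as closest gene, as not dependent on Rfx5, although its methods call every reproducible peak absent from Rfx5-/-. The middle bases of the common stretch are printed here with those of 2 other kept sites away from promoters, at which no S-X pair was found, from GRCm38.p6 and with no capitals.
Aida intron, chr1:183299219-183299318, + strand: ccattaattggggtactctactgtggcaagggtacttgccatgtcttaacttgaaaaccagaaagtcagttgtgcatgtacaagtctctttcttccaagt
Chromosome 15 neighbour, chr15:75086832-75086931, + strand: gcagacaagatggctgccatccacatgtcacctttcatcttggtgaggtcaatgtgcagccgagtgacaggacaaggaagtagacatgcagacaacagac
Gm21149 region, chr5:15484214-15484313, + strand: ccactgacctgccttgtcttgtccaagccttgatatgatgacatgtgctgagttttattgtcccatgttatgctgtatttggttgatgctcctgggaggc

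Of the 16 nuclear sites away from class I and processing genes, 4 lay in 779.5 kb of chromosome 5 (14914977 to 15694456) that holds Speer4cos and several predicted genes, and 3 of these were kept. At Speer4cos itself, an antisense gene, the WT scores were 8.55, 17.5, 17.8, 21.04 and 15.5, the Rfx5-/- score was 8.00 and the Nlrc5F/F score was 18.1. The site 7744 bp upstream of Gm21149 scored 6.52, 7.30, 15.2, 10.7 and 10.6 in WT and 10.4 in Rfx5-/-. The site near Gm21847 had a WT median of 9.36 and an Rfx5-/- score of 5.95. The fourth site, upstream of Gm17019, had a WT median of 8.32, was lost in Rfx5-/- and scored 4.28 in Nlrc5F/F. The Rfx5-/- list had 19 peaks in this region, of which 16 lay in a WT list, the Nlrc5F/F list had 26, and the WT lists had 13 to 24. Windows of 50 bases that occur once in the reference made up 51.8%, 32.3% and 32.7% of the 3 kept sites and 54.3% of the lost one, against a median of 100% over all WT sites, and the part of repeated sequence in these peaks was not tested.

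A neighbouring pair of sites on chromosome 15, whose nearest gene start is that of the lincRNA Gm28502 and whose nearest coding gene is Ly6c2 (26131 bp and 25104 bp away), was split by the comparison. The lost site scored 22.3, 22.6, 27.7, 34.2 and 24.6 in WT and 26.8 in Nlrc5F/F, where it ranked 5. The kept one scored 14.6, 15.2, 16.6, 7.71 and 14.8 in WT, 5.89 in Rfx5-/- and 3.71 in Nlrc5F/F. The lost site was 851 bp from the Rfx5-/- peak of its neighbour, so it counts as kept when a peak within 1000 bp is accepted. The study lists a peak inside the lost interval, with Ly6c2 as closest gene, as not dependent on Rfx5. Its methods, in contrast, describe every reproducible peak as absent from the Rfx5-/- sample. In the reference the lost interval was repeat-masked over 100% of its length and had a GC content of 33.3%, whereas the kept interval was masked over 8.85% and had a GC content of 46.9%. Unique windows of 50 bases made up 59.2% of the lost and 82.6% of the kept interval. The lost site was the highest lost one without an S-X pair.

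Of the kept sites, 2 lay at nuclear promoters of protein-coding genes. Prcc, a proline-rich nuclear protein known from a gene fusion in papillary renal cell carcinoma, scored 5.36, 4.47, 5.73, 5.15 and 7.43 in WT and 6.62 in Rfx5-/-, and had no Nlrc5F/F peak. Ifrd2, named as an interferon-related developmental regulator, scored 6.52, 11.5, 5.09, 7.37 and 11.8 in WT, 9.10 in Rfx5-/- and 9.44 in Nlrc5F/F. Their WT medians, 5.36 and 7.37, are at the lower end of the kept sites.

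The peaks over Prcc and Ifrd2 both held ACTAC and TCCC separated by 3 bases, which is the core of the motif known to be bound by ZNF143 and THAP11. This search, on both strands, was chosen after the sequences were seen, so its shares in these peaks are a description and no test. The motif was present in 8 of the 16 nuclear promoter peaks that Rfx5-/- shared with a WT list, and in 6 of 14 when Prcc and Ifrd2 were left out. It was found in 2.13% of the RefSeq promoter windows of 300 bases and in 2 of the 56 nuclear promoter peaks of Rfx5-/- that lay in no WT list. The 8 windows are printed with the motif in capitals, to show the stretch that these 8 of the 16 peaks hold and the other 8 do not.
Prcc, chr3:87885763-87885792, - strand: aacaaacaaACTACgaaTCCCaggaatcac
Thrap3, chr4:126202695-126202724, - strand: aaacctaggACTACattTCCCaggaggtag
Rpl6, chr5:121204435-121204464, + strand: taaagaaaaACTACattTCCCatgatgccc
Zfp84, chr7:29768277-29768306, - strand: cagctcaggACTACattTCCCagaagacat
Ifrd2, chr9:107587569-107587598, + strand: ccggaatggACTACtacTCCCgtcgtgcac
Nup153, chr13:46728094-46728123, - strand: gccagaaaaACTACattTCCCagaggctcc
Cox7c, chr13:86046896-86046925, - strand: tagagccagACTACattTCCCacaatccat
Ddx23, chr15:98662971-98663000, + strand: gccctgaaaACTACcaaTCCCagaatgcac
Their Rfx5-/- scores were 6.62 (Prcc), 5.91 (Thrap3), 9.79 (Rpl6), 5.31 (Zfp84), 9.10 (Ifrd2), 4.99 (Nup153), 5.95 (Cox7c) and 4.08 (Ddx23). Prcc and Ifrd2 lay in all 5 WT lists, Nup153 and Ddx23 in 2, and the other 4 in 1. Ifrd2 alone of these 8 peaks was found in Nlrc5F/F. None of them held an S-X pair.

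The same motif was also present in 4 of the 22 lost sites, which were those of Phf12, Chchd4 and Tmem43, Lars, and the Pprc1 exon for which Ldb1 is the nearest start. It therefore did not separate kept from lost sites. At nuclear promoters it was present in 7 of 16 WT sites with an Rfx5-/- peak (43.8%), in 69 of 409 without one (16.9%) and in 12 of 31 with an Nlrc5F/F peak. Among nuclear promoter sites of 2 or more WT lists, it was present in 5 of 9 with an Rfx5-/- peak and in 23 of 88 without one (26.1%). These intervals differ in length from each other and from the promoter windows, and longer ones have more room for a match. No site of all 5 WT lists held both the S-X pair and this motif.

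The other lost sites were low in WT and, except for the site near Gm17019, absent from Nlrc5F/F. Phf12, a PHD finger protein of a corepressor complex, had a site 891 bp upstream of its start that scored 11.6, 17.5, 10.3, 11.7 and 9.91. The promoter between Chchd4, a mitochondrial import factor, and Tmem43 scored 12.0, 8.37, 6.38, 8.30 and 6.37, and that of Lars, the cytosolic leucyl-tRNA synthetase, scored 6.01, 9.07, 10.5, 8.35 and 5.36. The medians of the remaining sites were 9.59 at a chromosome 1 site in sequence masked over 99.5% of its length, 7.68 in a Mid1 intron on X, 7.02 in the Pprc1 exon and 4.62 at a site on Y, 15329 bp from the start of Mid1-ps1. The Rfx5-/- list had 0 peaks on Y and 9 on X, the Nlrc5F/F list had 0 and 6, and the WT lists had 3 to 5 on Y. The sex of the pooled mice is not given in the labels, and its part in the Y site was not tested.

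Lost and kept sites overlapped in score and width. The median of the WT median scores was 12.4 for lost sites (range 4.62 to 173.6) and 9.97 for kept sites (5.36 to 37.2). Median widths were 243 bp (121 to 893 bp) and 240 bp (138 to 460 bp). Within the lost sites, the 11 found in Nlrc5F/F had a median score of 86.9 and a median width of 656 bp, and the 11 not found there had 9.59 and 157 bp. The latter median, 9.59, was below that of the kept sites. In each WT list the median score was higher for the lost than for the kept sites (12.1 against 7.01 in list A, 11.9 against 7.83 in list D). The widths gave no such order, with a larger median for the kept sites in lists A, B and D.

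The distance from the site centre to the nearest gene start had a median of 155 bp for the lost and 652.5 bp for the kept sites. Promoters, taken from 500 bp upstream to 50 bp downstream of any annotated start, overlapped 14 of 22 lost sites and 5 of 10 kept sites, compared with 10.3% of all WT sites. Of the 5 kept promoter sites, 2 were mitochondrial, and the others were Prcc, Ifrd2 and Speer4cos. The 7 nuclear kept sites had a median distance of 2074 bp, and 3 of them were at promoters. Among the lost sites, the 12 on chromosome 17 had a median of 126 bp, with 11 at promoters. The 10 on other chromosomes, B2m among them, had a median of 5614.5 bp, with 3 at promoters. The nearness of the lost sites to gene starts thus came from those on chromosome 17.

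A further 3 kept sites were mitochondrial. The interval between mt-Tp and the end of the chromosome, in the control region, scored 8.90, 13.4, 11.4, 7.89 and 11.5 in WT, and 33.8 in Rfx5-/-, the highest score of that list. The mt-Nd5 and mt-Nd6 interval had a WT median of 7.25 and scored 10.9 in Rfx5-/-, and the mt-Nd4 interval had a median of 6.81 and scored 11.4. The Rfx5-/- list had 11 mitochondrial peaks, the WT lists had 6 to 9, and the Nlrc5F/F list had 0. Of the 12 Rfx5-/- peaks with a score of at least 10, 6 were mitochondrial and 3 were on chromosome 5. Whether the number of mitochondria per cell or the recovery of their DNA differed between the libraries was not tested.

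Of the 1970 Rfx5-/- peaks, 57 (2.89%) lay in a WT list, and 48 of these were nuclear. By list, 22, 23, 36, 29 and 31 Rfx5-/- peaks overlapped a peak of A, B, C, D and E. The 57 peaks had a median score of 5.95 and a median width of 135 bp. Promoters held 22 of them (38.6%), and 80 of all Rfx5-/- peaks (4.06%), mitochondrial peaks included. Without mitochondrial peaks, promoters held 16 of the 48 (33.3%), and 56 of the 1911 nuclear peaks in no WT list (2.93%). The strongest of the 57 outside the mitochondrial genome and the chromosome 5 region were the Aida peak, a peak 20526 bp from the start of Gm25352 on chromosome 3 (10.197) and the Rpl6 promoter peak (9.79). Rpl6 encodes a protein of the large ribosomal subunit. Sites held by 3 or 4 WT lists were led, among those kept, by the promoter of Ap2m1, a clathrin adaptor subunit, with a WT median of 13.3 and an Rfx5-/- score of 7.15, and, among those lost, by a site in an intron of E030030I06Rik with a median of 18.2.

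The 1913 Rfx5-/- peaks in no WT list were short and low. Their median width was 95 bp, the narrowest width of the list, and 60% had exactly that width. Their median score was 4.46, the 3 commonest scores accounted for 58.1% of them, and 2 of them reached a score of 10. They were mainly intergenic (48.9%) or intronic (44%), with a median distance of 19850 bp to a gene start, and 58 (3.03%) lay at promoters. The 1870 Nlrc5F/F peaks in no WT list were of the same kind, with a median width of 98 bp, a median score of 4.28 and 3.37% at promoters. Of the 1913 peaks, 5 lay in the Nlrc5F/F list. They lay in introns of Vopp1 and Dbf4 and between genes, 17195 bp, 83214 bp and 68784 bp from the starts of Gm10354, Gm5684 and Gm8141.

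**Figure D4:**
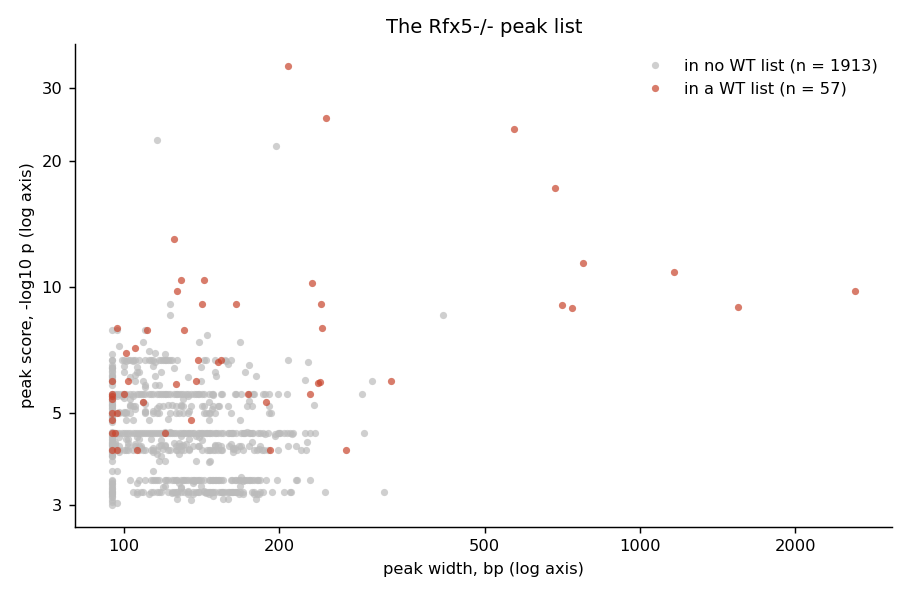
Score (−log10 p, log axis) against width (bp, log axis) of the Rfx5-/- peaks, in red for the 57 that lie in a WT list and in grey for the 1913 that lie in none. Apart from 2 points above 20, grey points fill horizontal bands of repeated score below 10 and a column at the narrowest width, 95 bp. All peaks wider than 500 bp are red and mitochondrial, and the widest nuclear red peak is 330 bp.

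The 2 highest of these peaks were a mitochondrial one at mt-Co1, which encodes a cytochrome c oxidase subunit, with a score of 22.4, and one in an intron of Ppp2r2b, a regulatory subunit of protein phosphatase 2A, with a score of 21.7 on chromosome 18. The next nuclear ones were in an exon of Gm42819, 20437 bp downstream of the start of Notch2, a receptor of the Notch family (9.10), and in an intron of Csmd3 (8.57). They were followed by 4 peaks that scored 7.87, of which 1 lay in a Magi1 intron, 1 in an exon of Ccdc85a, and the others between genes, 7586 bp from the start of Tnfaip6 and 151760 bp from that of B3galt2. A peak 23080 bp from the start of Mir680-3 scored 7.66. The peaks at 7.39 lay in a Dock10 intron, in an exon of Scn2a and, between genes, 2576 bp from the start of Gm44691. At promoters of nuclear coding genes the highest were Traf3ip1, Naglu and Mroh1 (6.68 each), Apba3 (6.42), Polr3k (6.26) and Bco2 (6.12), followed by Clpb, Atp13a1, Tmed4, Nup85 and Krtap6-1 (5.54 each). None of these nuclear peaks lay in the Nlrc5F/F list, and none of their genes belonged to the class I or processing lists.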

How the data were processed

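Peak lists of 7 NLRC5 ChIP-seq data sets from mouse T cells were used, and 1 library was made per genotype. Reads were aligned by the authors to GRCm38 with Bowtie 0.12.7, and they called peaks with MACS2 2.0.10.20130520 against Nlrc5-/- reads. Base calls came from CASAVA 1.8.2 (tools and versions per the submitters' processing notes). The score of each deposited peak is the −log10 p-value computed by the authors. The lists hold no read numbers, so no interval could be given, and the precision of a score is unknown. Not analysed here were the Nlrc5-/- sample and the sample holding all WT reads.

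Overlapping peaks of the 5 WT lists (1 bp or more) were merged into sites, each site was marked as kept when an Rfx5-/- peak overlapped it by 1 bp or more, and the highest peak of a list stood for a site in that list. Genes came from GENCODE M21 (1 start per gene, its 5′ end), and sequence and masking from the RefSeq GRCm38.p6 reference, whose chromosomes have GRCm38 coordinates. A window of 50 bases was unique when it occurred once in the primary assembly on either strand. No test between genotypes was made, and Dixon's criterion was applied only to the scores of the WT subsamples within each site. Named were all sites of all 5 lists, the 10 highest nuclear and the 10 highest coding-promoter Rfx5-/- peaks in no WT list, with ties, and the highest lost and kept sites of 3 or 4 lists. Other peaks were named after their values were seen. Members, gene lists and alternatives were chosen with earlier results of these data known. Python 3.11.15, numpy 2.4.6, numba 0.67.0, pysam 0.24.0, samtools 1.23.1 and matplotlib 3.10.9 were used. Merging and marking were tested on simulated data, where 200 of 200 sites were marked correctly and 100 of 100 planted motifs were found.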

Additional observations from a re-analysis of the deposited data

Results flagged for a closer look

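At 3 of the 32 sites, the score of 1 WT subsample stood apart from the other 4 by Dixon's criterion, which chance alone meets in about 1 of 20 groups. List B scored 17.5 at the lost Phf12 site on chromosome 11, above the other lists. List E scored 13.5 at the lost H2-K2 site, again the highest. List D scored 7.71 at the kept chromosome 15 site near Gm28502, below the other lists, and there the Rfx5-/- score was 5.89. All 3 sites remained in all 5 lists, so these values did not set whether a site was lost or kept.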

How the results depend on the processing

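Of 90 recomputed values, 73 were within 1.5 times the reported count or, for medians, within 1 SD over the WT lists. Presence in at least 3 WT lists gave 98 sites, 74 lost and 24 kept. A score of at least 5 in every list left 578 Rfx5-/- peaks in no WT list and 34 in one, and an overlap of 50% of both intervals left 36 in one. Promoters of 1000 bp on both sides of the start took in 115 of the Rfx5-/- peaks in no WT list. Among alternatives chosen after the data were seen, the Nlrc5F/F list marked 17 sites as kept, 9 lost sites remained away from class I and processing genes, 3 kept promoter sites remained without mitochondrial peaks, and 32 Rfx5-/- peaks in a WT list remained without these and the chromosome 5 region. Leaving out each WT subsample in turn gave 34 to 40 sites, 23 to 28 lost and 10 to 14 kept, 1916 to 1923 Rfx5-/- peaks in no WT list and 47 to 54 in one. The median score was then 10.01 to 11.7 for lost and 8.94 to 9.46 for kept sites, and the median width was 192 to 242 bp and 212 to 241 bp. No paired analysis was possible because each genotype had 1 library, and no test between genotypes was made. The lists give no read counts, so whether a lost site fell below the depth of the Rfx5-/- library was not tested, and variation between animals was not measured.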
